A study of Mus musculus with 10 samples.

Results

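The genes described here encode the nuclear-made subunits of the mitochondrial respiratory chain and of ATP synthase, in Max-null mouse embryonic stem cells (ESCs). Members were taken by name, without use of any measured value, as every gene whose symbol is that of a numbered subunit of complex I (Nduf genes), of a succinate dehydrogenase subunit (Sdha to Sdhd), of a complex III subunit (Uqcr genes), of a complex IV subunit (Cox4 to Cox8 genes) or of ATP synthase (Atp5 genes). The rule found 80 genes among 18193 genes that a probe set with 1 symbol measures, and 163 of 45037 probe sets. Grouped by symbol alone, complex I had 34 members, complex II 4, complex III 8, complex IV 17 and ATP synthase, also called complex V, 17. Ndufa4 was thus counted in complex I by its name, and its place in a complex was not checked. Each gene was read from its brightest probe set. Ndufa11 and Ndufs6 lay only on probe sets with several symbols and were left out.

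The respiratory chain sits in the inner mitochondrial membrane. Complexes I and II pass electrons from NADH and succinate to ubiquinone, complex III passes them on to cytochrome c, and complex IV passes them to oxygen, while complexes I, III and IV pump protons that drive ATP synthase. Most subunits are encoded in the nucleus and are made in nearly all cells, and pluripotent stem cells are known for a strong reliance on glycolysis beside respiration. MAX is the partner that MYC proteins need to bind DNA at E-boxes, and it also belongs to complexes that repress germ cell genes.

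The cells were male 129SV ESCs with both copies of Max disrupted, with MAX supplied from a transgene under tetracycline-off control, so that doxycycline (Dox) shuts off MAX and cells without Dox are the control of the same line. All groups carried the disrupted alleles and the transgene, and no wild-type ESCs were analysed here. In medium with LIF and serum there were 8 arrays, an untreated one and Dox for 1, 2, 3 and 4 d (set 1), and a second untreated one and Dox for 6 and 8 d (set 2). In 2i, a medium with inhibitors of MEK and GSK3β, there were 2 arrays, Dox for 6 d and untreated, both kept in 2i for 6 d. Each condition had 1 array, except untreated cells in LIF and serum with 2, and nothing in the labels says that the arrays came from separate cultures. These p-values therefore measure the spread among these arrays, which may be technical. In such bulk RNA, fewer cells with a transcript and less transcript per cell cannot be told apart.

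The number of arrays, and not a read depth, limited the precision. Values are log2 intensities normalized by robust multi-array analysis (RMA), with array medians of 5.14 to 5.16 in 2i and 5.26 to 5.33 in LIF and serum. The 8 ESC markers (among them Pou5f1, Nanog and Klf4) had medians of 11.75 to 12.71 over the arrays, and 6 fibroblast markers had medians of 3.85 to 4.80. The 1 probe set for Max read 5.57 untreated and 5.53, 5.60, 5.07 and 5.20 at 1 to 4 d, 5.74, 6.20 and 6.20 at 0, 6 and 8 d of set 2, and 5.54 with Dox and 5.75 untreated in 2i. The sources used here do not say whether it reads the transgene, so it checked no label. Several measures moved with the arrays of 6 and 8 d. The signal of the 3′ probes of actin minus that of its 5′ probes, a measure of RNA quality, was 0.41 to 0.56 in set 1, against 0.88 (untreated), 1.46 (6 d) and 1.22 (8 d) in set 2, whereas the same measure for Gapdh was -0.089 to -0.0068 in set 1, and 0.12 (untreated), 0.086 (6 d) and 0.046 (8 d) in set 2. The median of 6 trophectoderm markers was 5.62 to 6.09 in set 1, and 5.64 (untreated), 6.87 (6 d) and 7.62 (8 d) in set 2, and 1 of the 6, Krt7, rose with days of Dox. The median of the ESC markers was 11.93 (untreated), 12.71 (6 d) and 12.56 (8 d) in set 2, and 2 of 8, Nanog and Klf4, rose. The median of 7 primitive endoderm markers was 4.82 (untreated), 5.21 (6 d) and 5.76 (8 d), with none called. Of these, Gata6 and Foxa2 read 6.24 and 6.68 at 8 d, against 4.17 and 4.47 untreated, and the fibroblast marker Col1a2 read 6.90 against 5.19. In the same 2 lists Lama1, Sox7, Thy1 and Lum were lower, 7.32, 4.50, 7.02 and 3.01 at 8 d against 8.32, 5.17, 7.22 and 3.44 untreated. The remaining markers of both lists were higher at 8 d. The part of these measures in the results below was not tested.

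Most members gave a bright signal. The mean over the 10 arrays was at least 10 for 67 of 80 members, against 7.833% of all genes, although intensities also depend on each probe's sequence. The range of a member over the 10 arrays had a median of 0.93. It was under 1 for 46 members and 1 or more for 34. The range of all genes is not given here, so the members are not called steadier than other genes. Uqcrb, a small subunit of complex III, had the narrowest range, 0.335. Members read below 7 were Ndufb1, Ndufb4, Cox4i2, Cox6a2, Cox7b2, Cox7c and Cox8b, and small differences of these are not measured well.

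Promoters of the members were read from RefSeq (GRCm38.p6), 250 bases before to 50 bases after the start of each gene, for the 66 members in the table. The motif of nuclear respiratory factor 1 (NRF1), a regulator of respiratory genes, was GCGCA and GCGC with any 1 base between them, searched on both strands like all others. It was in 15 of 66 members (22.7%), against 5.19% of 27025 genes and 14% of the 6272 genes in the table with a mean of at least 7. Here and below a gene was counted when any of its promoters held the motif, so genes with several start sites had more than 1 chance. The YY1 motif AAGATGGC was in 9 (13.6%), against 3.19% of all and 6.58% of those brighter genes. The E-box CACGTG, the motif of MYC with MAX, was in 6 (9.09%, against 8.09% and 13.5%), and the ETS motif CCGGAAGT in 5 (7.58%, against 4.31% and 11.2%). The E2F motif TTCCCGCC was in 2 (3.03%, against 2.52% and 5.17%). A match is only a run of these letters and not a measured site. The promoters shown are those of Atp5pb and Ndufa1, the members that rose with Dox and were in the table, and those of Sdha and Cox6a1, which hold several NRF1 matches. All 4 lie on the minus strand and are written 5′ to 3′ in the direction of the gene, with motif matches in capitals. Atp5pb (chr3:105959214-105959513) has an E-box near its 5′ end and a YY1 match at the start site, written in its reverse form GCCATCTT. Ndufa1 (chrX:37191189-37191488) has no match of any motif searched, and Sdha (chr13:74350191-74350490) has 3 matches of the full NRF1 motif. Cox6a1 (chr5:115348909-115349208) has 2, of which the first overlaps the shorter NRF1 motif GCGCATGCG on both strands. Ndufs1 and Ndufb9, which also rose, are not shown.
Atp5pb: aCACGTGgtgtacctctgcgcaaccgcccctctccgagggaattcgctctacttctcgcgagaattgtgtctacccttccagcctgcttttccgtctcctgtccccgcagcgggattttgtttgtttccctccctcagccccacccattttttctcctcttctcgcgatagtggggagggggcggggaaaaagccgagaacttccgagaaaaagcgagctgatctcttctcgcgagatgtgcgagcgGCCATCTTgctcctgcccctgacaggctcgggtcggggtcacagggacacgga
Ndufa1: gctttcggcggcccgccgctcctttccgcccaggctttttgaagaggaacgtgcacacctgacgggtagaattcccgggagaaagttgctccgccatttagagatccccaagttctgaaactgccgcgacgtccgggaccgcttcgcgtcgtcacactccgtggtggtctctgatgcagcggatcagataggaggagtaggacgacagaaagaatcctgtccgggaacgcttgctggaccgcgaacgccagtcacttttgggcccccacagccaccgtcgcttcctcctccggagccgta
Sdha: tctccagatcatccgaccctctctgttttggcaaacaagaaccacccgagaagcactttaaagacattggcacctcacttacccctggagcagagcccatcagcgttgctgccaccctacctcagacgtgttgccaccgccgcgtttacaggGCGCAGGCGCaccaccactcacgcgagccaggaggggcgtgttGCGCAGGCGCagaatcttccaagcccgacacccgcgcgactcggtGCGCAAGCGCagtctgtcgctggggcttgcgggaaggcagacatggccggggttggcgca
Cox6a1: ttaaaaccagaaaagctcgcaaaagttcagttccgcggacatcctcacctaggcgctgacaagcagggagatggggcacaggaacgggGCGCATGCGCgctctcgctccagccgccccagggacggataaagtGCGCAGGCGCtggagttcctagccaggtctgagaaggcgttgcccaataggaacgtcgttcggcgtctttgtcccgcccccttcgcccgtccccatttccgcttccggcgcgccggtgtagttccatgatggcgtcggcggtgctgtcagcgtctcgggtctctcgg

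The first question was whether these genes changed steadily over 8 d without MAX in LIF and serum. Few did. Ndufs1, Ndufa1 and Ndufb9 of complex I and Atp5pb of ATP synthase rose with days of Dox, and no member fell, by a limma fit of a slope per day over the 8 arrays with array set as a covariate and Benjamini-Hochberg adjustment over all probe sets. That is 4 of 80 members, while 5.75% of all genes rose and 5.33% fell (6.75% and 9.47% of the 7581 genes with a mean of at least 7). At an unadjusted p under 0.05 there were 12 members up (15%) and 5 down (6.25%), where 13.2% of all genes were up and 14.8% down (17% and 22.9% of the brighter genes). Of the 83 other probe sets of members 5 rose and 2 fell: second or later ones of Ndufa3, Ndufb9, Ndufs4, Atp5g1 and Atp5pb rose, and those of Sdhd and Uqcr10 fell. The median slope of the members was 0.0068 log2 per day, against -0.0092 over all genes. The calls depended on single arrays: leaving out 1 array gave 0 to 4 members that rose, with 0 without the 4 d array and 0 without the second untreated array. Without that untreated array no gene of all 18193 passed. Without the 8 d array 3 members rose and 6 fell (Ndufb1, Ndufb2, Ndufb10, Uqcrfs1, Uqcr11 and Atp5e). In that fit 1240 of 18193 genes rose and 1334 fell. With set 1 alone 0 members rose and 1 fell, where 785 genes rose and 528 fell. Without the 4 d array 547 genes rose and 439 fell.

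**Figure D1:**
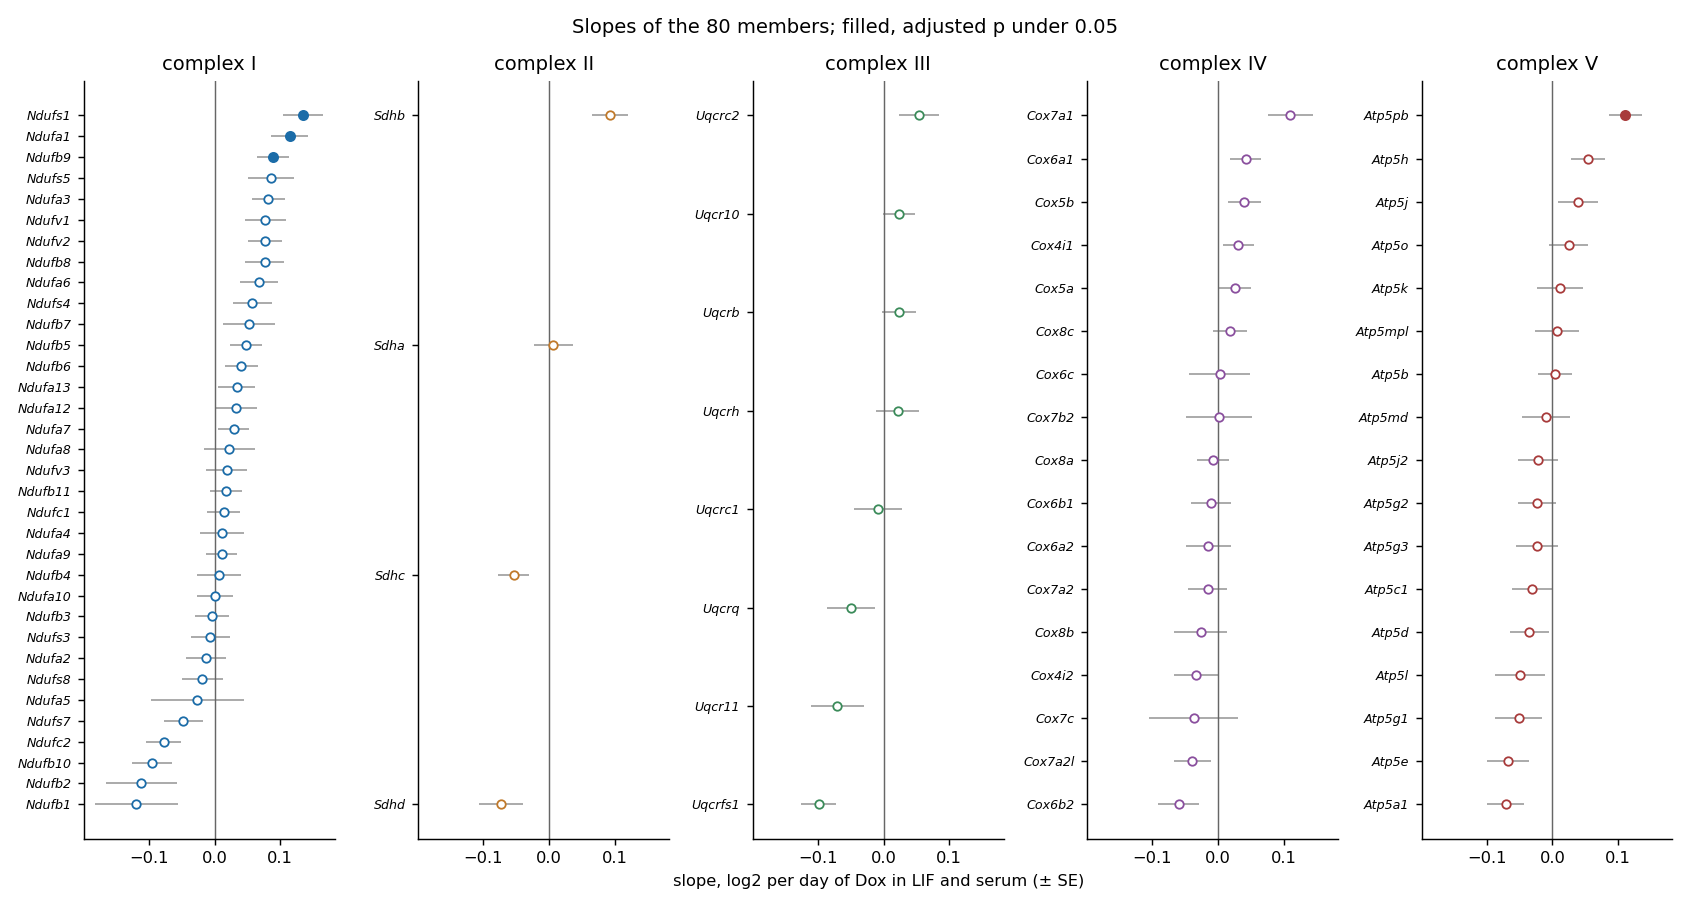
Slope of each of the 80 members in log2 units per day of Dox in LIF and serum (horizontal axis, bars ± SE from the limma fit), by complex and ordered by slope; filled points have an adjusted p under 0.05. The 4 filled points, Ndufs1, Ndufa1, Ndufb9 and Atp5pb, lie right of 0. A slope above 0 is seen in 24 of 34 complex I members, 7 of 17 complex V members and 7987 of all 18193 genes.

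Complex I, the NADH dehydrogenase, held 3 of the 4 members that rose. Ndufs1, the largest iron-sulfur subunit of the arm that takes up NADH, read 10.16 untreated and 10.66, 10.65, 10.96 and 10.95 at 1, 2, 3 and 4 d, and in set 2 it read 10.19 untreated, 11.17 at 6 d and 11.05 at 8 d. Every Dox array was above both untreated arrays, and the 2 untreated values were close. Its slope was 0.135 ± 0.030 log2 per day (SE, limma adjusted p = 0.0246), 1.97-fold above untreated at 6 d and 1.82-fold at 8 d. The slope was 0.120 to 0.171 with any 1 array left out, and the call was lost without the 4 d, the second untreated or the 6 d array (adjusted p = 0.0643, 0.350 and 0.0508).

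Ndufa1, a small accessory subunit needed to build the membrane arm, read 11.23 untreated and 11.56, 11.66, 11.96 and 12.03 at 1 to 4 d, and 11.89 untreated, 12.46 at 6 d and 12.59 at 8 d in set 2. The Dox arrays were above the untreated array of their own set, but the second untreated array was 0.66 above the first and lay among the Dox arrays of set 1. Its slope was 0.114 ± 0.028 log2 per day (SE, limma adjusted p = 0.0346). The slope was 0.0998 to 0.177 with any 1 array left out, and the call was kept without the first untreated or the 8 d array and lost without any other (adjusted p = 0.0539 to 0.259).

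Ndufb9, an accessory subunit of the membrane arm, read 11.52 untreated and 11.49, 11.65, 11.87 and 11.85 at 1 to 4 d, then 11.70 untreated, 12.24 at 6 d and 12.37 at 8 d in set 2. The 1 d array was level with the untreated one, and the later arrays were higher. The slope of 0.0888 ± 0.024 log2 per day only just passed (SE, limma adjusted p = 0.04998), and the call was lost without any 1 of the 8 arrays (adjusted p = 0.0583 to 0.425). A second bright probe set of Ndufb9 gave 0.0916 (limma adjusted p = 0.0440) and another, dim one gave -0.033 (0.484), and the mean of the 3 gave 0.0492 and no call (0.159).

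Over all 34 members of complex I the median slope was 0.020 log2 per day, and 24 of 34 slopes were above 0. So were those of 7987 of all 18193 genes and 3484 of the 7581 genes with a mean of at least 7. Of the other core subunits, Ndufv1, which binds NADH, had a slope of 0.0773 ± 0.031 and Ndufv2, its iron-sulfur neighbour, one of 0.0766 ± 0.026 (limma adjusted p = 0.161 and 0.1004). Ndufs3, Ndufs7 and Ndufs8, of the part that hands electrons to ubiquinone, had slopes of -0.0066, -0.0475 and -0.0189 (adjusted p = 0.927, 0.366 and 0.774). Among the accessory subunits of the membrane arm, Ndufb1, Ndufb2 and Ndufb10 had the most negative slopes, -0.119 ± 0.063, -0.112 ± 0.054 and -0.0954 ± 0.030, and none passed (adjusted p = 0.287, 0.242 and 0.0791). Ndufb10 read 10.63 untreated and 10.40, 10.13, 10.09 and 9.97 at 1 to 4 d, and 10.48, 9.75 and 9.99 at 0, 6 and 8 d of set 2, so each Dox array was below its untreated array. Ndufb2 read 10.83, 11.24, 10.52, 10.34 and 9.84 at 0 to 4 d, and 10.88, 9.93 and 10.63 at 0, 6 and 8 d, high at 1 d and low at 4 and 6 d.

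Complex II, succinate dehydrogenase, is shared by the citric acid cycle and the respiratory chain, and none of its 4 members passed. Sdhb, the iron-sulfur subunit, read 11.44 untreated and 11.14, 11.34, 11.54 and 11.70 at 1 to 4 d, and 11.03, 11.67 and 11.75 at 0, 6 and 8 d of set 2. In set 1 the untreated array lay among the Dox arrays, whereas in set 2 it was well below both. Its slope was 0.0930 ± 0.028 log2 per day (SE, limma adjusted p = 0.0661), and it passed without the first untreated array (adjusted p = 0.0392), after quantile normalization (0.0465) and under 3 other settings. Sdha, the flavoprotein that oxidises succinate, read 10.77 untreated and 10.90, 11.09, 11.15 and 11.20 at 1 to 4 d, but 10.79, 10.71 and 10.58 at 0, 6 and 8 d, upward in set 1 and downward in set 2. The membrane anchors had negative slopes, Sdhc -0.0538 ± 0.024 and Sdhd -0.0731 ± 0.034 (adjusted p = 0.200 and 0.223), while a second, dimmer probe set of Sdhd fell (-0.118, adjusted p = 0.0225). Sdhc was below its untreated array on all 6 Dox arrays, by 0.13 to 0.42. Its second probe set, with a mean of 9.03, was also lower with Dox in set 1. In set 2 that probe set read 8.50, 8.49 and 8.66 at 0, 6 and 8 d, and its slope was -0.0062 (limma adjusted p = 0.923).

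**Figure D2:**
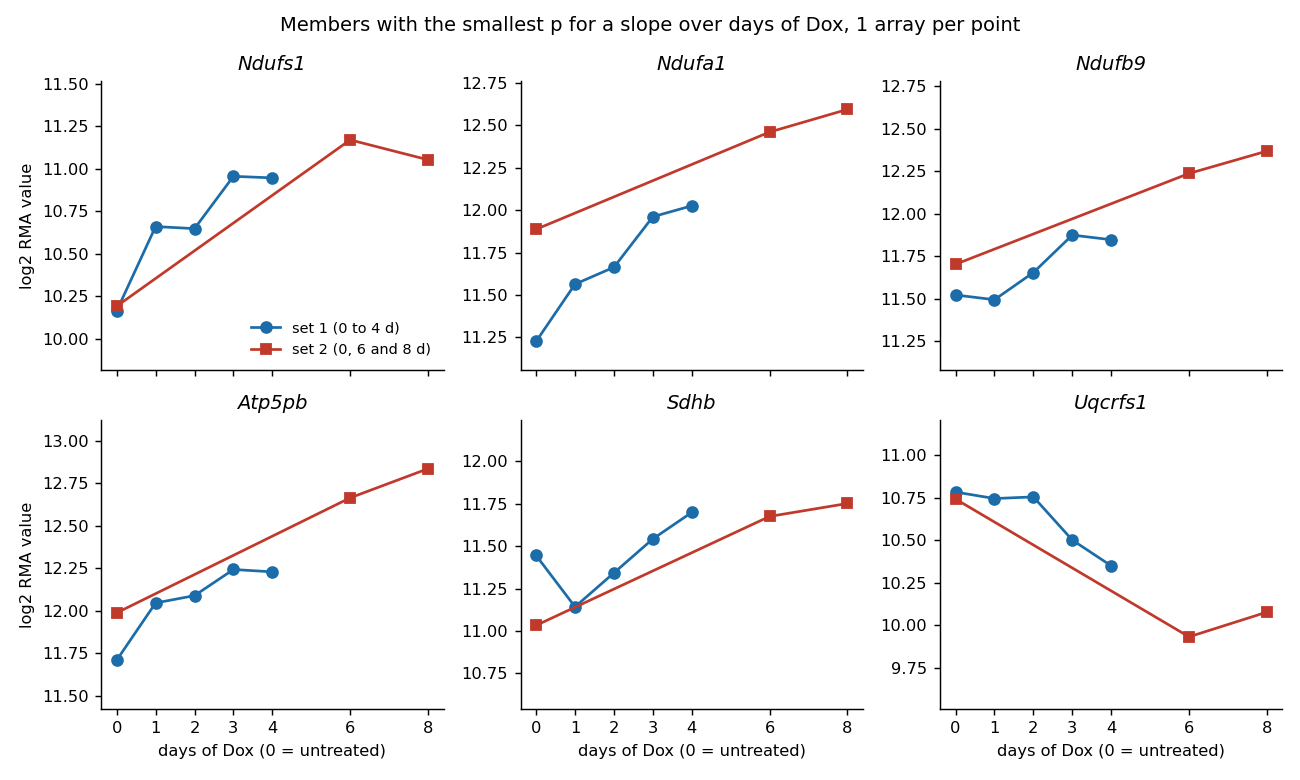
Log2 RMA value (vertical axis) against days of Dox (horizontal axis, 0 is untreated) for the 6 members with the smallest p for the slope; circles are arrays of set 1 and squares those of set 2, 1 array per point, and all panels span the same height in log2 units. Ndufs1 starts at nearly the same value in both sets, Ndufa1 starts 0.66 higher in set 2, and Uqcrfs1 reads 9.93 at 6 d and 10.08 at 8 d.

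In complex III, Uqcrfs1, the Rieske iron-sulfur protein that takes electrons from ubiquinol, came closest to a fall. It read 10.78 untreated and 10.75, 10.76, 10.50 and 10.35 at 1 to 4 d, and 10.74, 9.93 and 10.08 at 0, 6 and 8 d in set 2. The untreated values were level, and the 6 and 8 d arrays were the lowest of the 8. Its slope was -0.0988 ± 0.027 log2 per day (SE, limma adjusted p = 0.0503), 0.630-fold of untreated at 8 d, and 5 of the other settings called it (adjusted p = 0.0247 to 0.0411). Uqcrc2, a core protein of the complex, had the most positive slope, 0.0547 ± 0.031 (adjusted p = 0.317), and in set 1 alone its slope was -0.055. It read 10.48 to 10.61 at 1 to 4 d, below the 10.77 of its untreated array, and 11.40 and 11.63 at 6 and 8 d, above the 10.92 of the other. The small subunits Uqcr11 and Uqcrq had slopes of -0.0703 and -0.0491, and Uqcr10 and Uqcrb of 0.0236 and 0.0235, none of which passed. Another probe set of Uqcr10, with a mean of 8.63, went the other way and fell (-0.110, limma adjusted p = 0.0257).

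No member of complex IV, cytochrome c oxidase, passed, and the median slope of the 17 was -0.0078 log2 per day. Of the subunits made in most tissues, Cox4i1 read 12.75 to 13.03, Cox5b 12.82 to 13.29 and Cox6a1 12.95 to 13.54 over the 8 arrays, with slopes of 0.031, 0.040 and 0.042. Cox6b1, Cox7a2 and Cox8a, also made in most tissues, had slopes of -0.011, -0.016 and -0.0078, and Cox7a2l, which joins complexes III and IV into supercomplexes, had one of -0.039. Several subunits have isoforms of particular tissues. Cox7a1, the isoform of heart and skeletal muscle, had the largest slope of the complex, 0.110 ± 0.034 (SE, limma adjusted p = 0.0778). It read 7.12 untreated and 7.63, 7.40, 7.63 and 7.87 at 1 to 4 d, and 8.44, 8.63 and 9.39 at 0, 6 and 8 d, so the untreated arrays differed by 1.32, more than any Dox array differed from its own untreated array. Without the 6 d array it passed (adjusted p = 0.0481). Cox6b2, an isoform of the testis, had a slope of -0.0599 ± 0.031 (adjusted p = 0.279), reading 9.44 untreated, 9.30, 9.21, 9.16 and 8.91 at 1 to 4 d, and 9.79, 9.17 and 9.59 at 0, 6 and 8 d. The testis isoform Cox8c read 7.63 to 8.06 over the 8 arrays, and the muscle isoforms Cox6a2 and Cox8b read 5.80 to 6.55 and 5.03 to 5.80. Cox4i2, the isoform of the lung, read 4.62 to 5.40. Cox7b2, another testis isoform, read 3.29 to 4.32, below the array medians. Cox7c was read from a dim probe set and was 1.55 higher on the second untreated array than on the first.

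In ATP synthase, Atp5pb, the b subunit of the stalk that holds the catalytic head still, was the member that rose. It read 11.71 untreated and 12.05, 12.09, 12.24 and 12.23 at 1 to 4 d, and 11.99, 12.66 and 12.84 at 0, 6 and 8 d in set 2. All Dox arrays were above both untreated arrays. The slope was 0.111 ± 0.025 log2 per day (SE, limma adjusted p = 0.0241), 1.80-fold above untreated at 8 d, and a second probe set gave 0.113 (adjusted p = 0.0258). The slope was 0.103 to 0.117 with any 1 array left out, and the call was lost without the 4 d, the second untreated or the 6 d array (adjusted p = 0.0569, 0.356 and 0.0514).

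None of the 5 subunits of the catalytic head passed. Atp5a1 (α), Atp5c1 (γ), Atp5d (δ) and Atp5e (ε) had slopes of -0.0709, -0.0305, -0.0351 and -0.0675 log2 per day, and Atp5b (β) one of 0.0033 (limma adjusted p = 0.159, 0.612, 0.537, 0.233 and 0.959). Atp5a1 read 12.83 untreated and 12.71, 12.55, 12.28 and 12.35 at 1 to 4 d, and 12.43, 11.95 and 12.09 at 0, 6 and 8 d, below its untreated array on all 6 Dox arrays. Atp5g1, Atp5g2 and Atp5g3, which encode the same mature c subunit of the rotor ring, had slopes of -0.0515, -0.0232 and -0.0240 (adjusted p = 0.425, 0.686 and 0.716). The stalk subunits Atp5h (d) and Atp5j (F6), had the next largest slopes after Atp5pb, 0.0540 and 0.0391, and did not pass. Over all 17 members the median slope was -0.022 log2 per day, and 10 were below 0. So were those of 10206 of all 18193 genes and 4097 of the 7581 genes with a mean of at least 7.

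Stages were then compared, with neighbouring times standing in for replicates and each lone untreated array assumed to vary like them. At 1 and 2 d against the first untreated array, 0 members were called by limma, where 0.247% of all genes rose and 0% fell (0.343% and 0% of genes with a mean of at least 7). At an unadjusted p under 0.05 there were 8 members up (10%) and 0 down, where 8.83% of all genes were up and 7.81% down (14.7% and 9.09% of the brighter). At 3 and 4 d against 1 and 2 d, 0 were called (7 unadjusted, 8.75% of the members and 15.1% of all genes), where 0.627% rose and 0.17% fell (0.594% and 0.303% of the brighter genes). At 6 and 8 d against the second untreated array 2 members rose and 0 fell (14 unadjusted, 17.5% of the members and 28% of all genes), where 5.86% rose and 5.88% fell (6.62% and 10.1% of the brighter genes). These 2 were Ndufs1, by 0.92 ± 0.20 log2, and Atp5pb, by 0.76 ± 0.20 log2 (SE, limma adjusted p = 0.0227 and 0.0481). Without the 6 d array neither passed (adjusted p = 0.0690 and 0.0725), and without the 8 d array Atp5pb did not (adjusted p = 0.130). Against the mean of both untreated arrays 13 members rose and 4 fell, and those that fell were Uqcrfs1, Atp5a1, Sdhc and Ndufb10. The share of all genes called against that mean is not given here, so these larger counts are not read as a result about the members.

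At single times the members were counted past 1.5-fold, without a test. At 1 d, 5 of 80 were higher than untreated and 0 lower, where 8.85% of all genes were higher and 6.85% lower (13.5% and 5.87% of the 7581 brighter genes). The 5 were Ndufa5, Ndufb4, Cox6c, Cox7b2 and Cox7c, and only Ndufa5 (1.25) and Cox6c (0.89) of them read above 9. At 2 d, 4 were higher and 1 lower (10.1% and 10.1% of all genes, 15.6% and 11.3% of the brighter), and at 3 d, 4 were higher and 2 lower (13.1% and 12.6%, 19.5% and 16%). At 4 d, 5 were higher and 7 lower (14.6% and 14.6%, 21% and 19.6%). At 6 d, 3 were higher and 11 lower (13.3% and 15.3%, 15.5% and 22%), and at 8 d, 16 were higher and 2 lower (14.1% and 14%, 15.4% and 20.9%). Except at 8 d, the share of members past 1.5-fold upward was below that of all genes. The 11 lower at 6 d were Ndufb1, Ndufb2, Ndufb10, Ndufc2, Uqcrfs1, Uqcr11, Cox6b2, Cox7c, Atp5e, Atp5g1 and Atp5l, and at 8 d 9 of these were within 1.5-fold of untreated, while Uqcrfs1 and Cox7c were not. Of the 16 higher at 8 d, 11 were complex I members, led by Ndufs5 (0.97), Ndufb7 (0.89) and Ndufb8 (0.89).

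The 2 arrays of 8 and 6 d were next set against each other. At 8 d 71 of 80 members read higher than at 6 d, with a median difference of 0.24 log2, whereas over all genes the median difference was 0.039 and 10004 of 18193 were higher. All 17 members of complex V and all 8 of complex III were higher at 8 d, and their medians were 0.43 and 0.24. Past 1.5-fold, 8 members were higher and 0 lower (4.93% and 4.34% of all genes, 3.8% and 5.22% of the brighter). With 1 array a time there is no replicate check on this difference, and the actin measure was 1.22 at 8 d and 1.46 at 6 d. The 2 untreated arrays differed too: 11 members were past 1.5-fold higher and 3 lower in the second than in the first, where 14.8% and 12.7% of all genes and 22.3% and 7% of the brighter genes were.

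**Figure D3:**
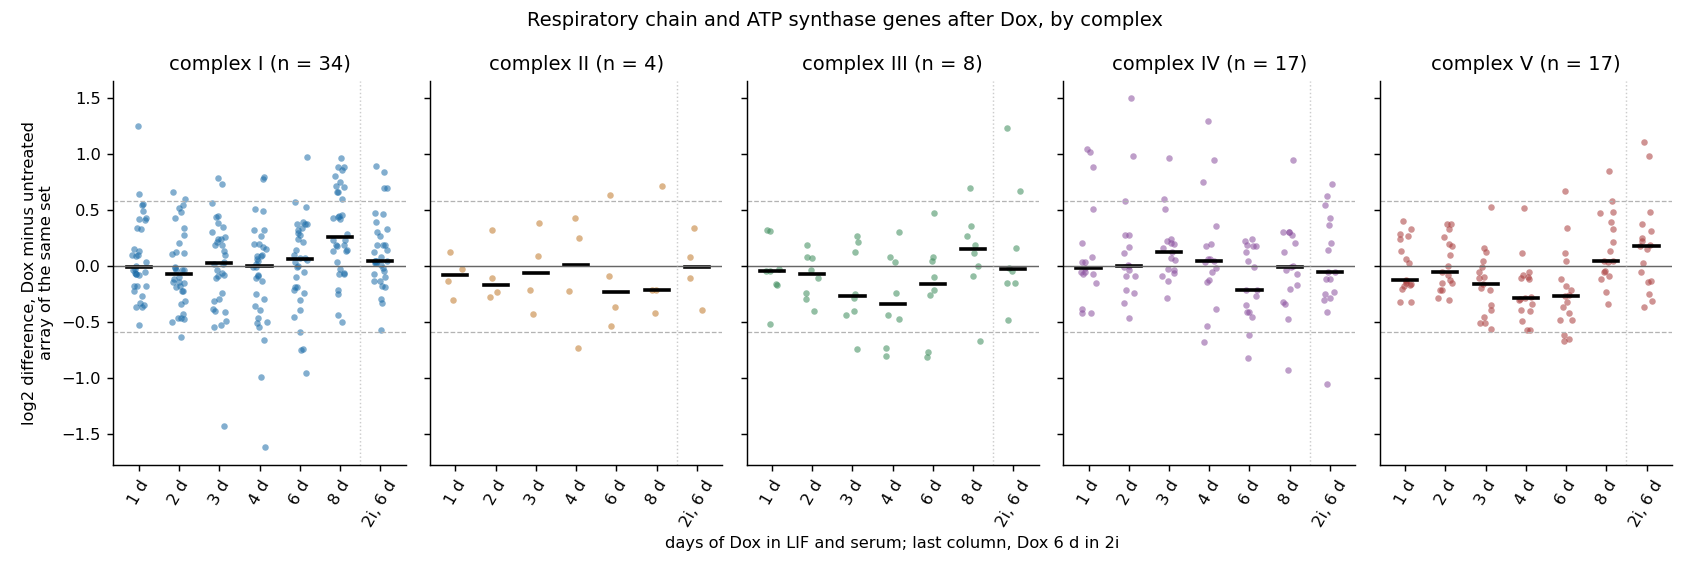
Log2 difference of each member from its set's own untreated array (vertical axis) at 1, 2, 3, 4, 6 and 8 d of Dox in LIF and serum and, in the last column, at 6 d in 2i, in 1 panel per complex; points are genes, black bars are medians, and dashed lines mark 1.5-fold. The complex V median is -0.28 at 4 d, -0.26 at 6 d and 0.05 at 8 d, and in complex I it is 0.07 at 6 d and 0.26 at 8 d.

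In 2i, where 1 Dox array at 6 d was set against 1 untreated array without a test, 10 members were past 1.5-fold higher and 1 lower, against 6.66% and 7.47% of all genes (8.89% and 9.62% of those with a mean of at least 7). Uqcrh, the hinge protein of complex III, read 12.33 with Dox and 11.09 untreated, 2.36-fold. Atp5mpl and Atp5k, small membrane subunits of ATP synthase, read 11.51 and 12.13 with Dox, and 10.40 and 11.14 untreated, 2.16- and 1.98-fold. The others were Ndufa4 (0.89), Ndufb2 (0.84), Cox6c (0.74), Ndufa2 (0.70), Ndufb3 (0.70), Uqcr11 (0.67) and Cox6b2 (0.62), with log2 differences in parentheses. Other bright probe sets of the same genes gave like differences, 1.18 for Uqcrh, 0.89 and 0.97 for Atp5k and 0.83 for Ndufb2. At 2-fold, 2 members were higher and 1 lower. The share of all genes past 2-fold is not given here, so these counts have no background beside them.

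The 4 members that rose in LIF and serum stayed within 1.5-fold in 2i. Ndufs1 read 10.49 with Dox and 10.67 untreated, Ndufb9 11.97 with Dox and 12.06 untreated, Ndufa1 11.83 with Dox and 11.64 untreated, and Atp5pb 12.72 with Dox and 12.54 untreated. At 6 d in LIF and serum Ndufs1 and Atp5pb were past 1.5-fold. Ndufa1 (12.46 with Dox and 11.89 untreated) and Ndufb9 (12.24 and 11.70) were within it there too. Whether the media differ was not tested. The member that was lower in 2i was Cox6a2, the muscle isoform, which read 5.90 with Dox and 6.94 untreated in a dim range. After it, Ndufa10, an accessory subunit of complex I, and Uqcrc2 had the largest decreases, -0.57 and -0.48. The median over the 80 members was 0.047, and 0.018 over all genes. By complex the medians were 0.049, -0.0087, -0.027, -0.049 and 0.18 in complexes I to V.

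**Figure D4:**
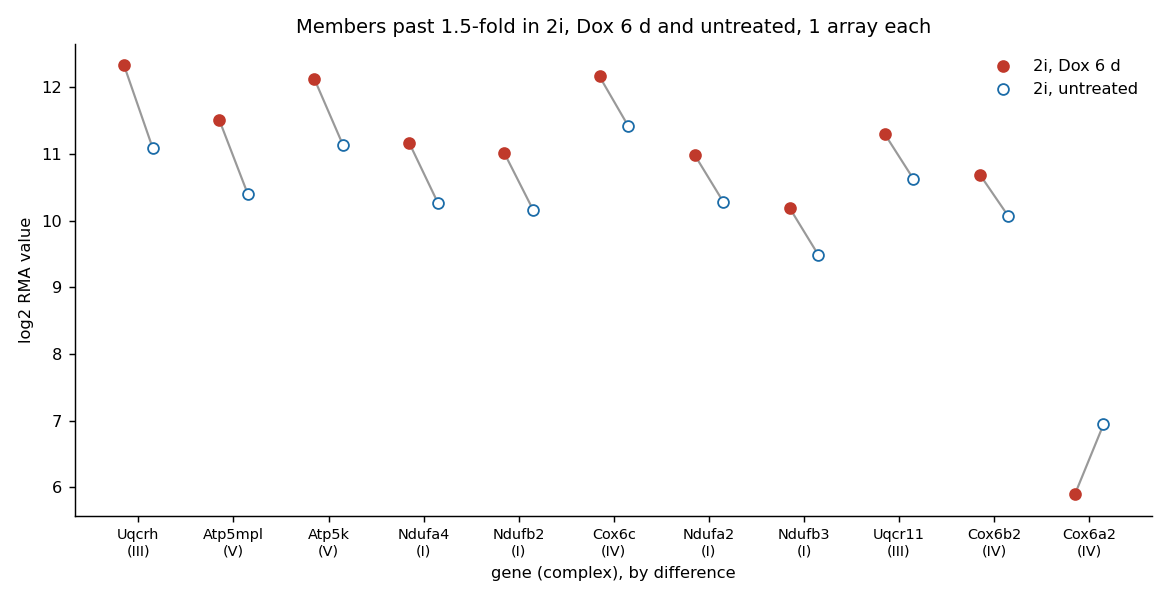
Log2 RMA value (vertical axis) of the 11 members past 1.5-fold in 2i, ordered by difference, with Dox 6 d as filled points on the left and untreated as open points on the right of each pair, 1 array each. Uqcrh, Atp5mpl and Atp5k have the largest increases, and Cox6a2 alone is lower with Dox.

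Untreated cells in 2i were also set against the mean of both untreated arrays in LIF and serum. They had 13 members past 1.5-fold higher and 10 lower (14.6% and 19.8% of all genes, 21.4% and 11.9% of the brighter), with a median of 0.26, against -0.11 over all genes. The split depended on scaling: 2 were higher and 13 lower after quantile normalization of the 10 arrays, and 22 were higher and 7 lower with each array centred on its median. Shares over all genes under these other scalings are not given here. No direction for the family as a whole is drawn from the split. Uqcrc2 and Uqcrh had log2 differences of 1.06 and -1.07, and they read 11.91 and 11.09 in 2i, and 10.77 to 10.92 and 12.03 to 12.29 in LIF and serum. Uqcrh, Atp5mpl, Atp5k, Ndufa4 and Ndufb3, among the members higher with Dox in 2i, read lower in untreated 2i than in LIF and serum, with differences of -1.07, -0.82, -0.75, -0.82 and -0.82, and kept that sign under both other scalings (-1.31 to -0.60). These values rest on the mean of untreated arrays that differ: against the first and the second alone, a choice made after seeing the data, Ndufa4 had -0.16 and -1.48 and Atp5mpl -0.59 and -1.05, and 9 members were higher and 9 lower, or 16 and 14. The 2 comparisons share the untreated 2i array.

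Genes that work with these subunits were counted in lists. Of 31 factors that assemble complexes II to V, 2 rose and 6 fell with days of Dox in LIF and serum. Of all genes 5.75% rose and 5.33% fell (6.75% and 9.47% of the brighter genes). At an unadjusted p under 0.05 in the limma fit there were 16 of the 31, against 28.1% of all genes and 39.8% of the brighter. The median slope of the 31 was -0.054 log2 per day. Surf1, which helps build complex IV, had a slope of -0.211 ± 0.027 (SE, limma adjusted p = 0.00362). It read 9.50 untreated and 9.08, 9.07, 8.96 and 8.61 at 1 to 4 d, and 9.49, 8.02 and 7.82 at 0, 6 and 8 d, 0.314-fold of untreated at 8 d. In 2i it read 7.98 with Dox and 8.98 untreated. Sco2, a copper chaperone of complex IV, had a slope of -0.185 ± 0.039 (adjusted p = 0.0194). Sdhaf3, which helps insert iron-sulfur clusters into Sdhb, had a slope of 0.264 ± 0.037 (adjusted p = 0.00474), reading 7.41, 7.70, 7.51, 7.80 and 8.74 at 0 to 4 d and 7.96, 9.46 and 10.07 at 0, 6 and 8 d. With the mean of its probe sets the slope was smaller, 0.106 (limma adjusted p = 0.0195). The other 5 that passed, named after their values were seen, were Coa7, Uqcc3, Coa5 and Cox20, which fell, and Tmem70, which rose. Leaving out 1 array gave 0 to 9 that fell and 0 to 2 that rose, with none without the second untreated array. Set 1 alone gave 6 and 0, where 528 of 18193 genes fell and 785 rose. Sco2 was also lost without the 4 d array (adjusted p = 0.0556).

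The other lists had 0 to 2 members called, where 5.75% of all genes rose and 5.33% fell (6.75% and 9.47% of the brighter). An unadjusted p under 0.05 was found in 28.1% of all genes (39.8% of the brighter). None of 15 complex I assembly factors passed (7 at an unadjusted p under 0.05), with a median slope of -0.07, and none of 12 citric acid cycle enzymes (4 unadjusted). Of 11 nuclear regulators of respiratory genes 1 fell, Ppargc1b, a coactivator of mitochondrial genes (-0.324 ± 0.043, limma adjusted p = 0.00391). It read 7.06 untreated and 6.49, 6.96, 5.71 and 5.92 at 1 to 4 d, and 8.14, 5.96 and 5.59 at 0, 6 and 8 d, and 5.001 with Dox and 6.22 untreated in 2i. Of 12 factors of mitochondrial transcription and replication 1 fell, the elongation factor Tefm (-0.174 ± 0.041, adjusted p = 0.0295), whose call was also lost without the 1, 4 or 6 d array (0.0509 to 0.0802). Of 14 electron carriers 2 rose: Cyct, the cytochrome c of the testis (0.212 ± 0.041, adjusted p = 0.0139, 3.25-fold at 8 d), and Coq10b, a ubiquinone-binding protein (0.0976 ± 0.026, adjusted p = 0.0485). Coq10b was kept without the 8 d array and lost without any other (0.0601 to 0.493). In 2i, Cyct read 7.66 with Dox and 8.36 untreated.

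Among 3 ADP/ATP carriers, which exchange ATP made in mitochondria for ADP, Slc25a31 rose (0.744 ± 0.160 log2 per day, SE, limma adjusted p = 0.0213), while Slc25a4 and Slc25a5, the carriers of most tissues, had slopes of -0.112 and -0.0604 (adjusted p = 0.197 and 0.151). Slc25a31 is the carrier of male germ cells and one of the genes the study itself followed in these cells, so its rise is not independent evidence. It read 6.26 untreated and 8.89, 6.18, 10.21 and 10.94 at 1 to 4 d, and 6.04, 11.20 and 10.74 at 0, 6 and 8 d. The 2 d array was at the untreated level, while those before and after it were higher. In 2i it read 9.33 with Dox and 7.28 untreated. Its call was lost without the 4 d or the second untreated array (adjusted p = 0.0593 and 0.315). Atpif1, the inhibitor of ATP hydrolysis by ATP synthase, was not taken in by the rule. It read 10.43 and 10.68 at 6 and 8 d against 11.57 on the 1 untreated array of that set (-1.01). It came from a list of 4 measured related genes, among them the member Atp5md. In the slope fit 0 of these 4 rose and 0 fell.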

How the data were processed

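RNA was hybridised to 10 Affymetrix mouse genome arrays. The deposited log2 values were made by the authors with RMA, which corrects the background, equalises the arrays and sums the probes of a probe set (RMA and affy are named in the submitters' processing notes, without versions). RMA shrinks differences among dim probe sets, and the sources used here do not say which arrays went into 1 normalization. Arrays were grouped by the labels, and the medium of the serum arrays was taken from the culture notes.

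Of 45101 probe sets 64 controls were left out. A platform table gave 34945 probe sets 1 symbol, 932 several, and did not list 9160; no gene was named from several. All 80 member symbols matched RefSeq unchanged. Members were read from 11 probe sets of the s_at and 6 of the x_at type, which can share probes with related sequences. limma 3.58.1 (R 4.3.3) fitted the slope per day with array set as covariate (5 residual and 4.81 prior degrees of freedom), and a fit of 7 stages over all 10 arrays (3 and 5.69). Tests were two-sided and adjusted by Benjamini-Hochberg over 45037 probe sets at 0.05. The fits were also run on simulated data. The simulated slopes and shifts were larger than those of any member called, so that run does not cover changes of this size. Folds are differences of log2 values turned into ratios; folds of dim genes are understated. With 1 array per medium and state no test was made in 2i. Summaries used Python 3.11.15, pandas 2.3.3, numpy 2.4.6 and matplotlib 3.10.9. Named were all of complex II, the 3 highest and 3 lowest slopes of each other complex, all members called, isoforms and core subunits, the 3 largest changes each way in 2i, and up to 3 called genes of each related list. Members were taken by symbol alone, but the lists and rules, the rule for members among them, were chosen with earlier results of these data known.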

Additional observations from a re-analysis of the deposited data

Results flagged for a closer look

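Ndufb2, Uqcr11 and Cox6b2 were past 1.5-fold in opposite directions at Dox 6 d in the 2 media, each from 1 array per condition, and the difference between media was not tested. Ndufb2 was 0.84 log2 higher with Dox in 2i (11.01 with Dox and 10.17 untreated) and 0.95 lower in LIF and serum (9.93 with Dox and 10.88 untreated). Uqcr11 was 0.67 higher with Dox in 2i (11.30 with Dox and 10.63 untreated) and 0.77 lower in LIF and serum (10.68 with Dox and 11.44 untreated). Cox6b2 was 0.62 higher with Dox in 2i (10.69 with Dox and 10.07 untreated) and 0.62 lower in LIF and serum (9.17 with Dox and 9.79 untreated). At 8 d in LIF and serum the 3 were within 1.5-fold of untreated.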

How the results depend on the processing

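With 1 array per Dox time, leaving out 1 array gave 0 to 4 members that rose and 0 to 6 that fell in the slope fit, 0 to 1 that rose at 6 and 8 d, and 0 in the earlier stages. Leaving out either untreated array leaves its stage comparison without a fit. No paired analysis was possible because the labels give no replicate numbers. Members that fell in the slope fit numbered 1 without the array set term, 2 with log2(day + 1), 1 with eBayes trend and robust, 1 among probe sets reaching 6 (log2) and 2 with the mean of a gene's probe sets, against 0 in the fit reported. Over all genes 1105, 1298, 976, 1119 (of 11513) and 1045 fell in these settings, in that order, against 969 of 18193 in the fit reported. The fit on set 1 alone, chosen after seeing the data, gave 0 that rose and 1 that fell, where 785 and 528 of 18193 genes did. With eBayes trend and robust, 1 member rose at 1 and 2 d, and at 6 and 8 d 5 rose and 1 fell. At 6 and 8 d, 1 fell among probe sets reaching 6, 5 rose and 2 fell with the mean of probe sets, and 13 rose and 4 fell against the mean of both untreated arrays. Shares over all genes are not given here for these other settings of the stage fit, so their counts have no background beside them. In 2i with Dox, 2 members were lower after centring and 2 were higher at 2-fold. In untreated 2i against LIF and serum, 2 were higher after quantile normalization, 22 after centring, 8 with the mean of probe sets and 1 at 2-fold, where 1 was lower. Against 1 of the 2 untreated serum arrays alone, 9 to 16 were higher and 9 to 14 lower. Shares over all genes are not given here for these other 2i counts either.

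Some slopes near 0 changed sign. They did so on set 1 alone for Atp5j (-0.00297), Atp5k (-0.0803), Atp5mpl (-0.0571), Cox6a2 (0.0424), Cox7a2l (0.0426), Cox7c (0.251) and Uqcrc2 (-0.0547), with log2(day + 1) for Atp5k (-0.00408) and Ndufa10 (-0.00273), without the array set term for Sdha (-0.0230) and Uqcrq (0.00712), and with the mean of probe sets for Atp5g1 (0.151), Sdha (-0.0249) and Uqcr10 (-0.0480). With 1 array left out, slopes ranged from -0.0512 to 0.0264 for Atp5k, -0.0390 to 0.0191 for Atp5mpl, -0.0306 to 0.0144 for Cox6a2, -0.0488 to 0.0336 for Cox7a2l, -0.102 to 0.200 for Cox7c, -0.00596 to 0.0174 for Ndufa10, -0.00857 to 0.0830 for Sdha, -0.0268 to 0.0733 for Uqcrc2 and -0.0217 to 0.0504 for Uqcrh. The second probe set of Atp5g1 is dim, with a mean of 4.28 and a slope of 0.354. The cause of the other changes was not tested.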
